A study of Mus musculus with 6 samples.

Results

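The cells described here are the CD8 T cells of the CD45-depleted fraction of mouse lymph nodes, 1781 of the 28538 cells kept in 3 libraries and of the 53259 kept in all 6 libraries of the series. Cells were kept that held 500 or more unique transcript counts (UMIs) and 300 or more genes, with no more than 10% of UMIs from mitochondrial genes. Among kept cells, the CD8 T cells were chosen by 5 genes: at least 1 UMI of Cd3e or Cd3d, at least 1 of Cd8b1, and none of Cd4 or Cd79a. The rule found 1195 cells in the naive library, 442 in the YUMM1.7 library and 144 in the YUMMER1.7 library. The values of these 5 genes chose the cells, so they are given below as a description only.

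CD8 T cells carry a T cell receptor, bound to the CD3 chains, that reads peptides on MHC class I with the help of the CD8 coreceptor. Naive CD8 T cells circulate through lymph nodes under the transcription factors LEF1 and TCF1 and the homing receptor CCR7. When a dendritic cell presents their antigen in a node that drains a tumour, they divide, arm granules with granzymes and perforin, and leave for the tissue or persist as memory cells.

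The nodes came from C57Bl/6 mice and were digested with collagenase; the design text, written for the enriched fraction, names inguinal and axillary nodes that drain the tumour, pooled over several mice per sample. The 3 arms were mice without a tumour (naive), mice bearing YUMM1.7, a mouse melanoma line, and mice bearing YUMMER1.7, a more immunogenic derivative of that line made by ultraviolet mutagenesis. Each arm had 1 library of the CD45-depleted fraction and 1 of a fraction enriched with CD11b and CD11c beads, all made with a Chromium 3′ kit, so no difference has a replicate check and no test was possible. The labels name the fraction after depletion of CD45+ cells while its protocol speaks of positive enrichment with CD45 beads, and CD8 T cells carry CD45, so the cells described are those that came through this step. The sources used here give no age, sex or day after tumour injection of the mice, and each tumour arm stands for a single transplanted line.

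The 3 libraries held 78240566, 76861915 and 67709285 UMIs, here and below in the order naive, YUMM1.7, YUMMER1.7. The CD8 T cells held 9155162, 3308721 and 2847455 of these. Their median depth was 6564, 6401 and 11448 UMIs per cell, so the YUMMER1.7 cells were deeper, and the largest of them held 142016 UMIs, 4.99% of all UMIs of that group. No barcode was shared between the CD8 T cells of any pair of the 3 libraries. Levels are given as CPM, the UMIs of a gene per 1000000 UMIs summed over the CD8 T cells of a library. Brackets hold exact 95% intervals, which cover counting error only, neither differences between mice nor repeated handling. Intervals of ratios treat each UMI as a separate draw and leave out differences between cells. They are therefore too narrow where few cells hold most UMIs of a gene.

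The label was checked against the markers that the rule did not use, Cd8a and Lef1, and both were above the other cells in all 3 libraries. Cd8a, the α chain of the coreceptor, stood at 270.6, 270.8 and 217 CPM and was seen in 79.2%, 79.4% and 85.4% of the cells, against 1.59%, 0.982% and 0.675% of B cells with median depths of 3728, 4215 and 5156.5 UMIs. Cd3e, a signalling chain of the receptor complex, stood at 348, 384 and 279 CPM, and Cd8b1, the β chain of CD8, at 555, 551 and 541 CPM. Both of these genes were part of the rule, so their levels describe the selection and do not check it. Lef1, the other marker outside the rule, stood at 1043, 1024 and 303 CPM, against 217, 78.3 and 26.0 CPM in the other kept cells; its lower level in the YUMMER1.7 library is described below.

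The edge of the rule lay at single UMIs of Cd8b1. Just inside it, 15.9%, 17.0% and 11.1% of the cells held exactly 1 Cd8b1 UMI. Just outside it were 695, 311 and 157 CD3+ cells with neither Cd8b1 nor Cd4, with median depths of 4812, 5091 and 4557 UMIs, below those of the chosen cells. A further 79, 30 and 13 cells were left out for a Cd4 UMI and 321, 72 and 26 for a Cd79a UMI.

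CD8 T cells made up a smaller share of the tumour libraries. They were 9.21% (8.72 to 9.72) of kept cells without a tumour, 5.09% (4.64 to 5.58) with YUMM1.7 and 2.09% (1.77 to 2.46) with YUMMER1.7. The bead step and the number of stromal cells recovered can affect these shares, and their part was not tested. The share among T cells, the CD3+ cells without Cd79a, was therefore taken as well. It was 45.6% (43.7 to 47.5), 41.0% (38.1 to 44.0) and 36.0% (31.3 to 40.9), and the naive and YUMMER1.7 intervals did not overlap. Under a stricter cell filter the shares were 46.5%, 42.6% and 41.9%, a smaller gap. The ratio to CD4 T cells, chosen by the mirror rule, was 1.86 (1.69 to 2.06), 1.51 (1.30 to 1.76) and 1.69 (1.29 to 2.24), with overlapping intervals for the YUMMER1.7 library and each of the others. In the CD11b and CD11c enriched fraction, where the same rule found 358, 55 and 115 cells, that ratio was 0.797, 0.539 and 0.92, also lowest in the YUMM1.7 library.

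Of the 3 states counted, division differed most between the arms. A cell was counted as cycling when, after every cell was thinned to 1500 UMIs, it held at least 2 UMIs over 10 cell cycle genes such as Mki67 and Top2a. Cycling cells made up 4.89% (3.73 to 6.28; 58 of 1186) in the naive library and 3.17% (1.75 to 5.27; 14 of 441) in the YUMM1.7 library. In the YUMMER1.7 library they were 40.6% (32.4 to 49.1; 58 of 143), an interval far above the other two. The same gate marked 3.15%, 10.8% and 9.99% of B cells and 8.18%, 17.5% and 43.5% of CD4 T cells, so CD4 T cells had a high share in the YUMMER1.7 library too and, unlike CD8 T cells, a raised share in the YUMM1.7 library. CD8 T cells of the enriched fraction gave 1.68% (6 of 357), 0 of 55 cells (up to 6.49%) and 12.2% (6.82 to 19.6; 14 of 115), highest again in the YUMMER1.7 library but at a lower level. Without thinning the shares in the depleted fraction were 10.7%, 15.2% and 48.6%.

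Memory-like cells, those with at least 2 of Ccl5, Cxcr3, Il2rb, Eomes, Tbx21 and Nkg7 after thinning, made up 20.6% (18.3 to 22.99) of naive, 16.6% of YUMM1.7 and 32.9% (25.3 to 41.2) of YUMMER1.7 CD8 T cells. As a share of all CD8 T cells, the surplus in the YUMMER1.7 library lay among cells that were also cycling. Cells that were both memory-like and cycling were 2.28%, 1.13% and 17.5%, while cells that were memory-like and not cycling were 18.3%, 15.4% and 15.4%. Within the cycling cells there was no surplus: 27 of 58 naive and 25 of 58 YUMMER1.7 cells were memory-like. Outside the cycle 217 of 1128 naive and 22 of 85 YUMMER1.7 cells were memory-like. Cells with neither state were 76.8%, 81.4% and 44.1%. B cells passed the memory gate at 0.486%, 0.173% and 0.247%. Interferon-high cells, with at least 3 of 12 interferon-stimulated genes, were 11.9% (10.1 to 13.9), 8.39% and 8.39% of CD8 T cells. B cells gave 7.47% (6.90 to 8.08), 7.22% and 11.2%, so the CD8 and B cell intervals lay apart in the naive library and overlapped in the other libraries. These states are ranges of a count per cell, not cell types: in the naive library 503 cells stood 1 gene below the memory limit and 68 cells 1 UMI below the cycling limit.

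**Figure D1:**
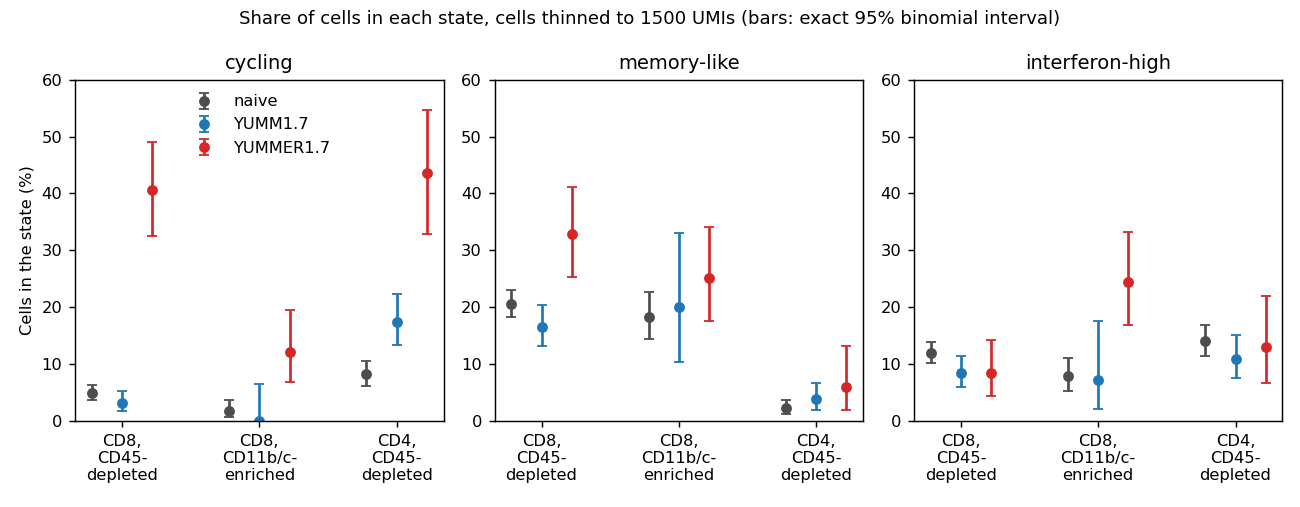
Share of cells (%) in the memory-like, cycling and interferon-high states after thinning to 1500 UMIs, by arm, for CD8 T cells of the CD45-depleted fraction, CD8 T cells of the enriched fraction and CD4 T cells of the CD45-depleted fraction, with bars for exact 95% binomial intervals. The cycling share of the YUMMER1.7 library reached 40.6% in CD8 and 43.5% in CD4 T cells of the CD45-depleted fraction, against 4.89% and 8.18% in the naive library.

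The first comparison asked what a YUMM1.7 tumour changed in these cells, and few genes differed. A gene is called past the fold limit when it held at least 20 UMIs over both libraries, its log2 ratio was 1 or more in size and the interval left out 0. Of 12259 genes measured, 198 (1.62%) were higher and 153 (1.25%) lower by that rule. Of the 198 higher genes, 89 drew more than 25% of their YUMM1.7 UMIs from a single cell, which the rule for naming did not exclude. That rule left out the 122 genes that lay below 0.5 times the level of the other kept cells. It also set a minimum CPM and left out some gene classes, and 3 genes met all its limits.

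Gzma, the gene of granzyme A (GRCm38 chr13:113093825-113100981), a protease of cytotoxic granules, stood at 60.5 CPM in the naive and 133 CPM in the YUMM1.7 library, a log2 ratio of 1.13 (0.95 to 1.32). A single cell held 258 of its 554 naive UMIs and another 189 of its 439 YUMM1.7 UMIs, so a few cells carried the gene in both. Ifitm1, an interferon-inducible membrane protein that restricts virus entry, stood at 24.4 and 92.8 CPM (log2 ratio 1.93; 1.68 to 2.19), with 157 of 307 YUMM1.7 UMIs in 1 cell. Lgals3, which encodes the secreted lectin galectin-3, stood at 28.1 and 69.2 CPM (1.30; 1.04 to 1.56), but at 9.37 and 6.82 CPM in cells that were not cycling, the opposite order. In the YUMM1.7 library Gzma, Ifitm1 and Lgals3 stood at 790, 590 and 558 CPM in the 14 cycling cells described above and at 48.8, 29.3 and 6.82 CPM in the others, so the 3 genes were carried by few cells.

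The 2 genes named as lower were Hspa1a, an inducible heat shock chaperone, at 103 and 46.5 CPM (log2 ratio -1.14; -1.40 to -0.90), and Rad51b, a DNA repair factor, at 64.8 and 30.5 CPM (-1.08). Hspa1a stood at 37.3 and 139 CPM in the enriched fraction, the opposite order. Among the 15 gene lists, 5 genes were lower: Hspa1a, the chemokines of activated T cells Ccl3 and Ccl4, the transcription factor Batf3, and Socs2, a feedback inhibitor of cytokine signalling. Ccl4 had the lowest ratio, at 48.8 and 16.0 CPM (-1.61; -2.05 to -1.20). Every other measured gene of the lists lay within the fold limit, Gzma apart, and the list medians ran from -0.27 to 0.05, beside -0.02 for all measured genes. The genes of naive identity were level: Lef1 stood at 1043 and 1024 CPM and Tcf7 at 291 and 294 CPM.

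Between the YUMMER1.7 and naive libraries the CD8 T cells differed at many more genes. Of 12496 genes measured, 1638 (13.1%) were higher and 938 (7.51%) lower past the fold limit. Against YUMM1.7, of 11066 genes, 1519 (13.7%) were higher and 780 (7.05%) lower; both comparisons use the same YUMMER1.7 cells. The higher side rested on few cells for many genes: 648 of the 1638 drew more than 25% of their YUMMER1.7 UMIs from 1 cell, and 1063 stayed past the limit without the cell richest in each gene. On the lower side 911 of 938 stayed past it.

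Cell cycle genes were the most uniformly higher group. Of 24 genes of the proliferation list, all measured, 23 were higher in the YUMMER1.7 library than in the naive library and none was lower, with a median log2 ratio of 2.24 beside -0.03 for all genes. Mki67, the chromosome coat protein Ki-67, stood at 75.04, 58.6 and 351 CPM (log2 ratio to naive 2.23; 2.08 to 2.37). Top2a, the topoisomerase that untangles replicated DNA, stood at 107, 90.4 and 463 CPM (2.11; 1.99 to 2.23). Hmgb2, a chromatin protein abundant in dividing lymphocytes, was the highest at 628, 630 and 3285 CPM (2.39; 2.34 to 2.44). The naive and YUMM1.7 levels of these 3 genes lay close together and the YUMMER1.7 levels far above both. Birc5, survivin of the chromosomal passenger complex, stood at 59.0, 53.8 and 354 CPM, and Pcna, the sliding clamp of DNA polymerase, at 72.5, 82.2 and 192 CPM.

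Promoters of cell cycle genes are known for CCAAT boxes, bound by NF-Y, and for the cell cycle homology region, whose core is TTTGAA. Since these genes were higher together, their RefSeq promoters (GRCm38.p6) were searched over 250 bases before the start for CCAAT and TTTGAA on both strands. Of the 24 genes 21 had a window; CCAAT was in 17 (81.0%), TTTGAA in 7 (33.3%) and both in 7 (33.3%), against 37.5%, 18.3% and 6.45% of all 27025 genes with a window. A match describes the letters and shows no binding. The 160 bases before the start are shown for the 3 genes described above, which held both motifs there; capitals mark each match, on either strand, so that a match on the other strand reads as the reverse complement. Hmgb2 lies at chr8:57511683-57511842 on the plus strand, Top2a at chr11:99024190-99024349 and Mki67 at chr7:135716380-135716539, both on the minus strand.
Hmgb2: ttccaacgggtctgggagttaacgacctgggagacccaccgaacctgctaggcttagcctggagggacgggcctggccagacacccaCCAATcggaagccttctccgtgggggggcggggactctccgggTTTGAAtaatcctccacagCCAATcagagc
Top2a: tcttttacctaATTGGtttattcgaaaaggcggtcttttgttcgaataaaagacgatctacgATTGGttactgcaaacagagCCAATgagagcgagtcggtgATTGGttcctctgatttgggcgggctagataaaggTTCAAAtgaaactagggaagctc
Mki67: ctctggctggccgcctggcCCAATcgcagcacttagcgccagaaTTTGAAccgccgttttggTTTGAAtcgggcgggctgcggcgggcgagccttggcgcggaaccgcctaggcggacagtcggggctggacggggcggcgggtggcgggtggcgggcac
Top2a held 4 CCAAT matches and 1 TTTGAA match in this stretch, Hmgb2 held 2 and 1, and Mki67 held 1 and 2.

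Genes of naive and central memory identity were lower in the YUMMER1.7 library. Of 20 measured, 12 were lower past the fold limit and none was higher, with a median log2 ratio of -1.23. Lef1, a transcription factor of naive T cells (chr3:131110471-131224356), stood at 1043, 1024 and 303 CPM (-1.78; -1.89 to -1.68), the lower gene ranked first by the naming rule. Bach2, a repressor that holds back effector genes, stood at 752, 772 and 235 CPM (-1.68; -1.79 to -1.56). Tcf7, which encodes TCF1, stood at 291, 294 and 109 CPM (-1.42; -1.59 to -1.25). In each case the tumour-free and YUMM1.7 levels were alike and the YUMMER1.7 level was lower. Deep cells weigh most in summed UMIs: with every cell thinned to 1500 UMIs the list median was -0.65, and that of proliferation 2.84.

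The homing and survival receptors of that list followed. Ccr7, the receptor that guides cells into the T zone, stood at 150, 170 and 56.5 CPM. Il7r, the receptor of the survival cytokine IL-7, stood at 474, 479 and 202 CPM, and the survival factor Bcl2 at 420, 394 and 155 CPM. Klf2, a factor of quiescence and recirculation, was level at 525, 492 and 500 CPM, and its target S1pr1, the exit receptor, stood at 185, 222 and 142 CPM, within the limit.

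Other genes named by the rule as lower were not in a list. Dusp10, a phosphatase that dampens JNK and p38 kinases, stood at 128, 128 and 34.4 CPM (-1.89; -2.21 to -1.59). Znrf3, a ubiquitin ligase that removes Wnt receptors, stood at 252, 239 and 73.1 CPM (-1.79). Patj, a polarity scaffold, stood at 93.9, 96.7 and 24.6 CPM (-1.93), the DNA-binding cofactor Ssbp2 at 204, 210 and 59.7 CPM (-1.77), and Rapgef4, an exchange factor of the small GTPase Rap, at 134, 133 and 37.9 CPM (-1.82). Against YUMM1.7 the rule also named Ccr9, the gut-homing receptor, at 44.5, 56.5 and 10.2 CPM, and the interferon-inducible Ifi208, at 46.3, 50.5 and 10.9 CPM. Between the naive and YUMM1.7 libraries these 7 genes were near level, with the widest log2 ratio, 0.35, for Ccr9.

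Granzyme genes were among the effector genes with the highest ratios. Of 30 measured genes of the memory and effector list, 16 were higher and 2 lower in the YUMMER1.7 library, with a median of 1.05. Gzma stood at 60.5, 133 and 877 CPM (log2 ratio to naive 3.86; 3.72 to 3.99). Gzmb, granzyme B, which triggers death of target cells (chr14:56258838-56262260), stood at 35.5, 52.9 and 301 CPM (3.08; 2.90 to 3.27). Gzmk, a granzyme of early effector and memory cells, was low throughout, at 3.28, 2.72 and 26.3 CPM (3.01; 2.38 to 3.67). The order of the 3 libraries was the same for Gzma and Gzmb, with the YUMM1.7 level much nearer to the naive than to the YUMMER1.7 level. Prf1, perforin, which opens the target membrane, did not go with them, at 49.3, 52.0 and 39.3 CPM.

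Cytokine, transcription factor and receptor genes of effector cells were also higher. Ifng, the cytokine interferon gamma, stood at 19.2, 21.5 and 59.7 CPM (1.64; 1.32 to 1.95). Tbx21, the effector factor T-bet, stood at 23.9, 21.2 and 68.8 CPM, and Id2, a regulator of effector survival, at 116, 102 and 364 CPM. Klrk1, the stress ligand receptor NKG2D, stood at 48.3, 25.4 and 185 CPM. S100a4 and S100a6, calcium-binding proteins of antigen-experienced T cells, stood at 87.5, 94.9 and 842 CPM and at 173, 236 and 1157 CPM, and the adhesion chain Itgb1 at 140, 107 and 470 CPM. Some genes of the list were lower or within the limit. Ccl5, a chemokine stored by memory CD8 T cells, stood at 423, 313 and 177 CPM (-1.26; -1.39 to -1.12). Itga4, an integrin chain for entry into tissue, stood at 147, 164 and 68.1 CPM (-1.11). Eomes, a memory transcription factor, stood at 35.9, 45.9 and 20.02 CPM (-0.84). With thinned cells, Ccl5 was seen in 15.6% (13.6 to 17.8) of naive and 14.0% (8.76 to 20.8) of YUMMER1.7 cells. Itga4 was seen in 18.3% (16.1 to 20.6) and 11.9% (7.08 to 18.4). Eomes went the other way, at 3.46% (2.49 to 4.66) and 6.99% (3.40 to 12.5). The intervals of each gene overlapped, so the lower summed levels of Ccl5 and Eomes were not seen as lower shares of cells.

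**Figure D2:**
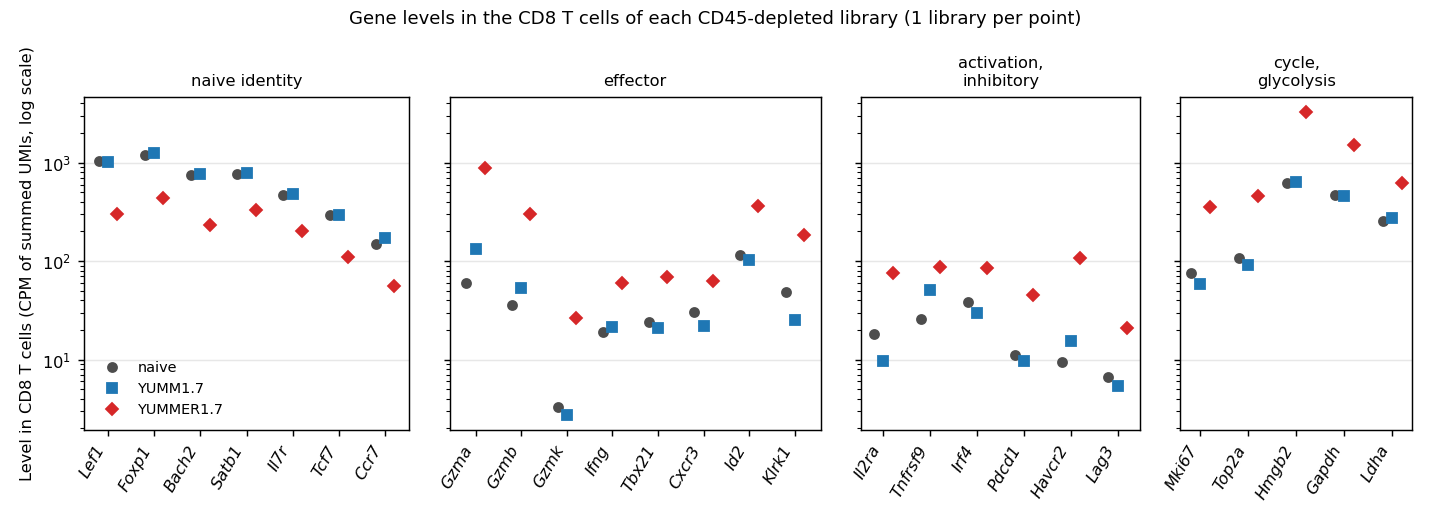
Level of naive identity, effector, activation, inhibitory, cell cycle and glycolysis genes in the CD8 T cells of each CD45-depleted library, in CPM of summed UMIs on a log axis, 1 point per gene and library. The naive and YUMM1.7 points lie close together for most genes while Lef1 stands at 303 CPM and Gzma at 877 CPM in the YUMMER1.7 library.

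Receptors of activation and inhibition were higher in part. Of 25 measured early activation genes, 7 were higher and 4 lower (median 0.09). Il2ra, the α chain of the IL-2 receptor, stood at 18.4, 9.67 and 75.2 CPM (2.03), and Tnfrsf9, the costimulatory receptor 4-1BB, at 25.9, 50.5 and 87.5 CPM (1.76). Over all cells the fast responders to receptor signals did not share this: Nr4a1 stood at 53.2, 61.0 and 56.5 CPM and Nr4a3 at 110.5, 109 and 48.5 CPM. In cells that were neither memory-like nor cycling, 927 of all 10976 measured genes were higher and 235 lower. Of 23 early activation genes in these cells, 8 were higher and 1 lower. The higher ones included Nr4a1, at 48.3, 50.8 and 106 CPM, and Egr1, at 32.7, 28.9 and 151 CPM. In the same cells 5 of 24 dissociation genes, including Fos and Jun, and 5 of 18 NF-kB genes were higher. Much of this came from few cells: 94 of 179 YUMMER1.7 UMIs of Egr1, 237 of 451 of Fos and 235 of 484 of Jun lay in 1 cell each. Among 16 inhibitory receptor and exhaustion genes, 7 were higher and 1 lower (median 0.88). Havcr2, the receptor TIM-3, stood at 9.50, 15.4 and 108 CPM (3.51; 3.16 to 3.87), Pdcd1, the receptor PD-1, at 11.1, 9.67 and 45.3 CPM (2.02; 1.64 to 2.41), and Lag3 at 6.66, 5.44 and 21.1 CPM (1.66; 1.12 to 2.20). Tox, the transcription factor of exhausted cells, stood at 457, 470 and 233 CPM (-0.97), below the naive level.

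Glycolysis genes, which fuel dividing T cells, were higher for 9 of 17 measured, with none lower and a median of 1.23. Gapdh stood at 475, 456 and 1505 CPM (1.67; 1.60 to 1.73) and Ldha, lactate dehydrogenase, at 255, 272 and 620 CPM (1.28; 1.19 to 1.37). Of 25 cytokine receptor and feedback genes, 4 were higher and 6 lower, and the share higher was near the 13.1% of all genes given above. Il12rb2, a chain of the IL-12 receptor of effector cells, stood at 29.3, 19.0 and 71.6 CPM (1.29), whereas Il6ra stood at 91.2, 85.5 and 30.2 CPM (-1.59), Il21r at 197, 200.4 and 76.9 CPM (-1.36) and Il4ra at 55.6, 62.0 and 23.2 CPM (-1.26).

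Genes of the type I interferon response list did not share the increase. Of 33 type I interferon response genes measured, 10 were lower and 1 higher (median -0.68). Ifit1, an antiviral RNA-binding protein, stood at 30.1, 20.6 and 7.73 CPM (-1.96; -2.66 to -1.34), and Slfn1, a growth regulator of T cells, at 105, 89.2 and 42.9 CPM (-1.29). The single higher gene, Ifi44, was rare, at 0.546, 1.51 and 10.5 CPM. Ifitm1 and its relatives Ifitm2 and Ifitm3, which are in none of the lists, were higher. After thinning they were seen in 0.759%, 0.928% and 1.52% of naive and in 18.2%, 17.5% and 15.4% of YUMMER1.7 cells. B cells gave 0.0768%, 0.550% and 1.80% in the naive and 4.38%, 9.16% and 15.6% in the YUMMER1.7 library. Of 25 interferon gamma and MHC class I genes, 4 were lower and none higher (median -0.11). In the remaining lists the counts were mixed or small: T cell receptor complex 0 higher and 2 lower of 28, trafficking 4 and 7 of 25, ribosome biogenesis and Myc targets 3 and 0 of 20, apoptosis 2 and 3 of 20, NF-kB 1 and 0 of 18, and dissociation and heat shock 2 and 1 of 24.

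The 10 genes the rule named as higher in the YUMMER1.7 library were of another kind. Glycam1, a mucin of high endothelial venules, stood at 9.18, 45.9 and 2444 CPM, and 4401 of its 6959 YUMMER1.7 UMIs were in 1 cell. Ccl20, a chemokine of epithelium and stroma, had no UMI in the naive cells and 654 in the YUMMER1.7 cells, 620 of them in 1 cell. The other 8, Lcn2, Hs6st3, Sema3a, Prr16, Reg3g, Cpe, Robo2 and Unc5c, also held most of their UMIs in 1 cell each. Genes named against YUMM1.7 included Selp and Procr, both known from endothelium. Ifitm1 and Lgals3, named above, were spread more widely, with UMIs in 31.25% and 38.9% of YUMMER1.7 cells and at most 202 of 1792 and 91 of 1427 UMIs in 1 cell. They stood at 629 and 501 CPM over all YUMMER1.7 cells and at 6.25 and 20.8 CPM in those that were not cycling.

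RNA of other cells was present in all 3 groups, and it was measured beside these results. Igkc, the kappa light chain of B cells, was seen in 92.7%, 100% and 100% of CD8 T cells, at 557, 1363 and 595 CPM against 17440, 43060 and 30070 CPM in the other kept cells. The 12 B cell markers summed to 3.43%, 3.57% and 2.76% of their level elsewhere. The 7 fibroblastic stroma markers summed to 22.5, 73.7 and 229 CPM in the CD8 T cells and to 34.3, 1342 and 3006 CPM in other cells, and Ccl21a, a chemokine of stroma, held 352 of its 487 YUMMER1.7 UMIs in 1 cell. Endothelial markers summed to 183, 184 and 324 CPM, against 298.5, 462 and 651 CPM in other cells. Pecam1, seen in 60.9%, 62.0% and 66.0% of CD8 T cells, stood at 170, 173 and 111 CPM of these sums. All the other endothelial markers were highest in the YUMMER1.7 library. There Prox1 held 129 of 140 UMIs, Lyve1 119 of 132 and Madcam1 108 of 123 in 1 cell each. The 7 markers of CD4 and regulatory T cells summed to 146, 136 and 304.5 CPM, with Cd4 at 0 by the rule. Most of that sum was Ctla4 and Il2ra, which activated CD8 T cells also use, but Foxp3, the factor of regulatory T cells, stood at 2.62, 4.53 and 13.35 CPM and was seen in 1.004%, 1.58% and 6.25% of cells. Its 38 YUMMER1.7 UMIs lay in 9 cells, 12 of these UMIs in 1 cell. Cd40lg, a helper ligand of CD4 T cells, stood at 6.33, 6.95 and 18.6 CPM, and Zbtb7b, the factor of the CD4 lineage, at 1.86, 0.907 and 4.57 CPM. Izumo1r, the remaining marker of that list, went the other way in level, at 17.8, 15.1 and 10.5 CPM. The 7 NK cell markers summed to 50.9, 45.9 and 26.0 CPM, and Ncr1, Klrb1c, Klra8 and Klra4 were at 0 in the YUMMER1.7 cells. Klre1 made up most of the YUMMER1.7 sum, at 26.4, 9.37 and 21.4 CPM. It was seen in 5.61%, 2.26% and 11.8% of cells. Ptprc, which encodes CD45, the target of the bead step, stood at 1463, 1498 and 896 CPM (-0.71; -0.77 to -0.65). When cells with 10 or more UMIs of stromal and endothelial markers were left out, 1062 genes were higher in the YUMMER1.7 library in place of 1638, while the proliferation median was 2.32 and that of naive identity -1.15. The part of CD45 level and of the markers of other lymphocytes in the differences above was not tested.

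The CD8 T cells were then split by the cycling gate, and naive identity genes differed mainly among the dividing cells. The 1128, 427 and 85 cells that were not cycling had median depths of 6485.5, 6330 and 8845 UMIs, and the 58, 14 and 58 cycling cells 17288, 26344.5 and 28994 UMIs. Between YUMMER1.7 and naive cells that were not cycling, 854 of 11598 genes (7.36%) were higher and 183 (1.58%) lower. Between the cycling cells, 375 of 9137 (4.1%) were higher and 631 (6.91%) lower. Fewer genes passed the limit on the lower side outside the cycle, where the YUMMER1.7 cells held 959685 UMIs, than inside it, where they held 1887100.

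Lef1 stood at 1148, 1133 and 758 CPM in cells that were not cycling (-0.60; -0.71 to -0.49) and at 369, 163 and 72.1 CPM in cycling cells (-2.36; -2.64 to -2.08). Tcf7 stood at 301, 318 and 249 CPM outside and at 228, 104 and 37.6 CPM inside the cycle. Bcl2 was level outside, at 469.5, 425 and 428 CPM, and stood at 103, 155 and 16.4 CPM inside. The naive identity list gave a median of -0.27 with none lower and 1 higher of 20 outside the cycle (Igfbp4, with 185 of its YUMMER1.7 UMIs in 1 cell), and of -1.37 with 11 lower of 19 inside. The dividing cells of the YUMMER1.7 library therefore differed from the dividing cells of the naive library in these genes, with 58 cells on each side.

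Some effector genes, Gzma and Gzmb among them, stood far higher inside the gate than outside it. Others did not in the YUMMER1.7 library. After thinning, Ccl5 was seen there in 6.90% of cycling and 18.8% of other cells, and Prf1 in 1.72% and 7.06%. Gzma stood at 14.7, 48.8 and 160.5 CPM in cells that were not cycling (3.45; 3.09 to 3.81), where 15 of 1128 naive and 4 of 85 YUMMER1.7 cells held all its UMIs, so that ratio rests on few cells. It stood at 352, 790 and 1241 CPM in cycling cells (1.82; 1.67 to 1.97). Gzmb stood at 11.1, 22.9 and 37.5 CPM outside, in 6 of 85 YUMMER1.7 cells, and at 191, 288 and 436 CPM inside (1.19; 0.98 to 1.41). Ifng did not differ past the limit between cycling cells, at 96.5, 120.1 and 84.3 CPM. Of the memory and effector list, 7 of 28 measured genes were higher and none lower outside, and 7 of 30 higher and 5 lower inside. The lower ones inside included Ccl5, at 223, 53.4 and 64.7 CPM, and Eomes, at 45.9, 141 and 11.1 CPM. With thinned cells, Ccl5 was seen in 25.9% of naive and 6.90% of YUMMER1.7 cycling cells, but Eomes in 3.45% of both. Havcr2 had no UMI in the 85 YUMMER1.7 cells outside the cycle and stood at 54.7, 109 and 163 CPM inside (1.58; 1.19 to 1.98). Itgae and Itgb7, the chains of the integrin that retains T cells in epithelium, were higher inside, at 27.4, 82.7 and 67.3 CPM and at 128, 221 and 290 CPM.

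Cell counts at equal depth gave the same picture for Gzma and Lef1. After thinning to 1500 UMIs, Gzma was seen in 6.90% of naive and 44.8% (31.7 to 58.5) of YUMMER1.7 cycling cells, and in 0.621% and 2.35% of cells not cycling; unthinned these were 17.2%, 65.5%, 1.33% and 4.71%. B cells gave 0.537% and 0.278% after thinning, with median depths of 3728 and 5156.5 UMIs, so the values outside the cycle lie near that background. Lef1 was seen in 36.2% of naive and 6.90% of YUMMER1.7 cycling cells, and in 74.3% and 60% of the others, against 2.34% and 1.23% of B cells. S100a6 was seen in 41.4% and 81.0% of cycling cells and in 6.29% and 11.8% of the others, against 3.72% and 9.62% of B cells. Pdcd1 was seen in 10.3% of cycling cells of both libraries after thinning, and in 25.9% and 63.8% without it, so a difference within cycling cells was not visible at equal depth.

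**Figure D3:**
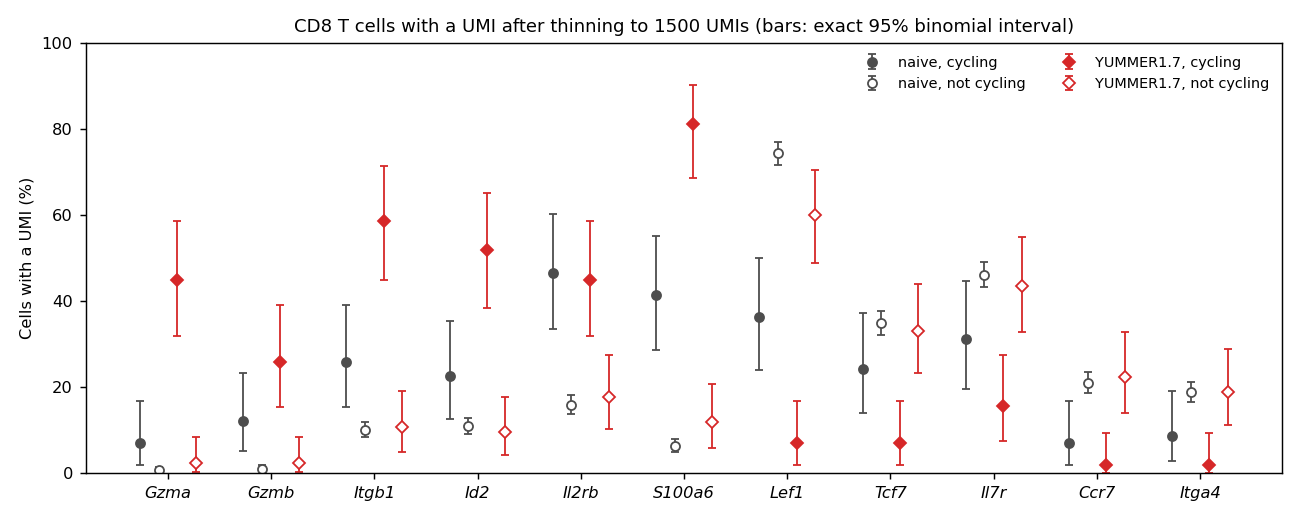
Share of CD8 T cells (%) with at least 1 UMI of a gene after thinning to 1500 UMIs, for cycling and not cycling cells of the naive and YUMMER1.7 libraries, with exact 95% binomial intervals. Lef1 was seen in 6.90% of YUMMER1.7 cycling cells against 36.2% of naive cycling cells, and Gzma in 44.8% against 6.90%.

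The genes of the gate belong to the proliferation list and not to the glycolysis list. Within the gate both lists were near level. In cycling cells the proliferation list had a median of 0.16 and the glycolysis list of 0.31, with no gene past the limit in either. Outside the gate the medians were 0.74, with 8 of 17 proliferation genes higher, and 0.56, with 1 of 16 glycolysis genes higher. The type I interferon list, lower over all cells, had a median of -0.05 with no gene past the limit among 32 in cells that were not cycling. Ifit3 stood there at 40.4, 21.8 and 33.3 CPM and Slfn1 at 112.5, 98.5 and 83.4 CPM.

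**Figure D4:**
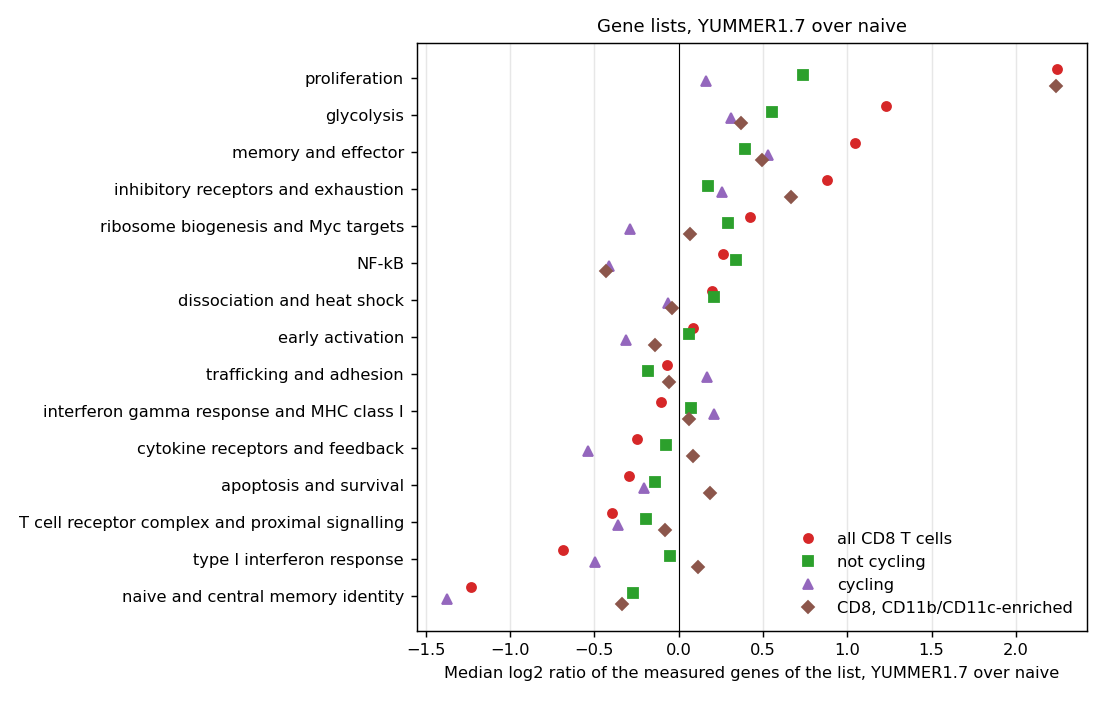
Median log2 ratio of YUMMER1.7 over naive over the measured genes of each of 15 lists, for all CD8 T cells of the CD45-depleted fraction, those not cycling, those cycling and the CD8 T cells of the enriched fraction. The proliferation median is 2.24 in all CD8 T cells and 0.16 in cycling cells, and the naive identity median is -1.23 in all cells and -0.27 in cells not cycling.

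The enriched fraction gave a second set of CD8 T cells from the same arms that the rule did not use, with 1 library per arm, other beads and another gene list, so only ratios were set side by side. There, 365 of 9706 genes (3.76%) were higher and 497 (5.12%) lower in the YUMMER1.7 than in the naive library. Of the 1638 genes higher in the CD45-depleted fraction, 872 were measured there; 627 (71.9%) had the same sign, against 41.6% of all measured genes with that sign, and 213 were also past the limit. Of the 938 lower genes 666 were measured, 519 (77.9%) had the same sign, against 58.5% of all, and 88 were also past the limit. A further 74 and 7 genes were past the limit the other way. For YUMM1.7 the shared signs were 25 of 48 higher genes (52.1%, against 42.05% of all) and 30 of 65 lower genes (46.15%, against 57.95% of all). Past the limit in the enriched fraction were 7 and 6 of them the same way, and 4 and 6 genes the other way.

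Division and granzymes recurred in the enriched fraction, whereas the difference in naive identity genes was smaller. Proliferation genes were higher for 20 of 24 (median 2.24). Gzmb stood at 8.10, 10.4 and 80.2 CPM (3.31; 2.64 to 4.03), and Gzma at 19.4, 10.4 and 102 CPM (2.39; 1.92 to 2.88). Pdcd1 stood at 2.82, 8.31 and 28.4 CPM, and of 15 inhibitory receptor genes 5 were higher and 1 lower. Naive identity genes had a median of -0.33 with none past the limit; Lef1 stood at 1105, 813 and 745 CPM (-0.57; -0.68 to -0.46). Interferon genes were not lower there as a list, with 3 higher and 1 lower of 29 and a median of 0.11. Isg15, an interferon-induced ubiquitin-like protein, stood at 40.8, 99.8 and 104 CPM, against 75.5, 45.9 and 59.7 CPM, and interferon-high cells were 7.84%, 7.27% and 24.3%. That share rests on the limit chosen: 24 of the 28 interferon-high YUMMER1.7 cells held exactly the 3 genes required, against 19 of 28 in the naive library. The difference between fractions was not tested.

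CD4 T cells of the same libraries, 641, 292 and 85 cells, shared part of the pattern. Of 10894 genes, 695 (6.38%) were higher and 835 (7.66%) lower in the YUMMER1.7 than in the naive library. Proliferation genes had a median of 1.74, with 19 higher, and naive identity genes of -1.10, with 12 of 20 lower. Lef1 stood at 906, 621 and 311 CPM in CD4 T cells, so it was below the naive level already in the YUMM1.7 library. This differed from CD8 T cells of the CD45-depleted fraction, but not from those of the enriched fraction. Gzma stood at 12.1, 3.37 and 2.30 CPM, the reverse of its order in CD8 T cells, and Gzmb at 91.9, 237 and 180.1 CPM. Memory-like cells were 2.20%, 3.77% and 5.88% of CD4 T cells.

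T cell receptor β variable segments could be read in few cells, since the libraries sequence the 3′ end. A Trbv UMI was seen in 21.3%, 24.0% and 37.5% of CD8 T cells. Among the cycling YUMMER1.7 cells, 28 had 1 leading segment, spread over 13 segments, and Trbv12-2 led in 6 of them (21.4%; 8.30 to 41.0). Among cycling naive cells it was 6 of 25 (24.0%; 9.36 to 45.1), also over 13 segments. The dividing cells of the YUMMER1.7 library thus used many β segments, and no segment stood out from the naive library at this depth.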

How the data were processed

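The authors deposited UMI counts per gene and barcode for each library, whole numbers without normalization. Cell Ranger 8.0.1 and mm10 are named per the submitters' processing notes; per the file headers the CD45-depleted matrices carry version 7.0.0 and the enriched ones 8.0.1, with 54752 and 32285 features, of which 31796 identifiers of the first are in the second, so fractions were never pooled. The sources used here give no cell calling or multimapping settings.

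Counts were summed over the chosen cells per library and given as CPM of that sum. Log2 ratios have exact conditional binomial 95% intervals, shares Clopper-Pearson intervals, and a ratio against 0 UMIs uses a floor of 3 counts. With 1 library per arm no p-value was computed. States were read after thinning each cell to 1500 UMIs with a fixed seed, which left out shallower cells. The cycling gate was 2 UMIs over 10 genes, the memory gate 2 of 6 genes, the interferon gate 3 of 12 genes. Up to 10 genes per direction and comparison were named, ranked by the interval bound nearest 0, with at least 50 CPM in the higher library and at least 0.5 times the level of the other kept cells, leaving out immunoglobulin, receptor segment, mitochondrial, ribosomal, haemoglobin and sex-linked genes and unnamed models; members of 15 gene lists served as further examples, and 16 marker lists described other cells. CD4 T cells had a Cd3e or Cd3d and a Cd4 UMI and none of Cd8b1, Cd8a or Cd79a. Scrublet's automatic thresholds marked no cell of the 3 libraries and so had not worked; the 95th percentile of its scores served as an alternative, and no doublet was removed otherwise. Positions are from GENCODE vM21 (GRCm38). The ratios were tested on simulated counts, drawn independently per gene and without cells. That test cannot show how the ratios behave where few cells hold most UMIs of a gene. The cells, lists, gates and naming rule were chosen with earlier results of these data known. Alternatives covered the filters, the rule, thinning, scaling, depth and left-out cells; some were added after seeing the data. Tools were Python 3.11.15, numpy 2.4.6, scipy 1.17.1, pandas 2.3.3 and scanpy 1.11.5.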

Additional observations from a re-analysis of the deposited data

Results flagged for a closer look

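Hspa1a, an inducible heat shock chaperone, differed between the fractions in its direction from naive to YUMM1.7. In CD8 T cells of the CD45-depleted fraction its log2 ratio was -1.14 (-1.40 to -0.90), and in those of the enriched fraction it was 1.90 (1.44 to 2.36), past the fold limit in opposite directions. The difference between the fractions was not tested, each value resting on 1 library per arm.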

How the results depend on the processing

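No paired analysis was possible because each arm had 1 library per fraction and the labels number no replicates. Without cells of high Scrublet scores, 2 list medians of YUMMER1.7 over naive moved by more than the counting error, naive identity to -1.19 and memory and effector to 1.08, as did 22 values of single genes and other lists, while 64 did not.

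The state shares depended on their limits. With 1 more gene or UMI required, memory-like cells were 6.16%, 4.54% and 9.09% and interferon-high cells 5.23%, 2.72% and 3.50%. Unthinned, memory-like cells were 56.9%, 49.3% and 76.4%, cycling cells 10.7% and 15.2% in the naive and YUMM1.7 libraries, and interferon-high cells 62.1%, 50.7% and 72.2%. The YUMMER1.7 cycling share ran from 33.3% to 48.6% over the alternatives. The stricter cell filter gave shares of kept cells of 9.85%, 5.76% and 2.90% and a YUMMER1.7 share of T cells of 41.9%, against 46.5% in the naive library. The stricter rule for the cells, which also required Cd8a, gave 5.53%, 3.03% and 1.13% of kept cells, 27.4%, 24.4% and 19.5% of T cells, and CD8 to CD4 ratios of 1.12, 0.901 and 0.918.

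Counts of genes for YUMM1.7 over naive were 63 higher and 84 lower with at least 50 UMIs, 82 and 97 with thinned cells, and 323 and 323 with the mean of per-cell CPM; 105 were higher under the stricter rule and 122 without the cell with most UMIs of each gene. For YUMMER1.7 over naive they were 407 and 192 with thinned cells, 958 and 531 with cells of at most 40000 UMIs, 854 and 183 without cycling cells, and 927 and 235 without memory-like and cycling cells. Higher genes numbered 1062 with fewer than 10 stromal UMIs, 1084 under the stricter rule and 1065 without the richest cell. For YUMMER1.7 over YUMM1.7 they were 337 and 203 with thinned cells, 915 and 512 with cells of at most 40000 UMIs, 774 and 189 without cycling cells, and 825 and 247 without memory-like and cycling cells, with 969 higher with fewer than 10 stromal UMIs and 1011 under the stricter rule.

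The medians of 3 lists for YUMMER1.7 over naive, naive identity, memory and effector, and proliferation, kept their sign under each alternative run. Memory and effector was only 0.024, practically level, without memory-like and cycling cells. The memory and cycling gates use genes of the memory and effector and the proliferation lists. Leaving out cells by these gates is therefore no independent check of those lists. Naive identity was -0.65 with thinned cells, -1.15 with fewer than 10 stromal UMIs, -0.59 with per-cell means, -0.83 with cells of at most 40000 UMIs, -1.01 under the stricter rule, -1.32 without ribosomal, mitochondrial and immunoglobulin genes in the total, -0.27 without cycling cells, -0.41 without memory-like and cycling cells, and -1.36 without the richest cell. Memory and effector was, in the same order but without the thinned value, 1.17, 1.29, 1.20, 0.91, 0.96, 0.39, 0.024 and 0.97. Proliferation was 2.84 with thinned cells, then 2.32, 2.90, 2.37, 2.32 and 2.16, and 0.74 and 0.85 without the cycling and without both sets of cells.

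Some values changed sign, and the cause was not tested. Without cycling cells Lgals3 for YUMM1.7 over naive was -0.46, and the type I interferon median for YUMMER1.7 over YUMM1.7 was 0.15 in place of -0.59. Without memory-like and cycling cells Ifitm1 was -0.54 and Lgals3 -1.88, that interferon median was 0.29 and the inhibitory receptor median -0.14 in place of 1.09. Glycam1 for YUMMER1.7 over YUMM1.7 was -0.12 with fewer than 10 stromal UMIs, in place of 5.73.

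Depth limits rare genes most: the 85 YUMMER1.7 cells that were not cycling, and the 14 cycling YUMM1.7 cells, leave wide intervals. Leaving out every cell with a stromal UMI was not carried further, since 5 YUMMER1.7 cells remained. Doublets could not be called, the bead step can affect which T cells were recovered, and 1 library per arm cannot separate tumour from library.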
